A study of Mus musculus with 10 samples.

Results

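The genes described here are 9 immediate-early genes of the Egr, Nr4a and Ier families: Egr1, Egr2, Egr3, Nr4a1, Nr4a2, Nr4a3, Ier2, Ier3 and Ier5. They were chosen by symbol and not by a rule on their values, though with earlier results of these data known. The table holds 17053 genes, and all 9 are among the 12218 with enough reads to be tested. RNA came from NIH-3T3, an established mouse embryonic fibroblast line labelled wild type, in 10 libraries that form 5 groups of 2 replicates, B and A. In the TUC and SLAM groups, cells received 800 µM 4-thiouridine (4sU) for 2 h and their RNA was then chemically converted, with osmium tetroxide and an ammonium salt for TUC and with iodoacetamide for SLAM. In the 4sU group, cells had the same labelling and the RNA was left unconverted, the uridine group had 800 µM uridine for 2 h, and the untreated group had neither. 4sU replaces some uridine in RNA that is made while cells hold it, and both chemistries turn it into a base that is read as C, so that new and old molecules of a gene can be counted apart. The study asks whether these steps bias the quantification of RNA.

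Immediate-early genes are switched on within minutes of a growth factor, serum or stress signal, without new protein synthesis, mainly by serum response factor with its ETS-family cofactors on CArG boxes and by CREB on cyclic AMP response elements (CRE). Their messenger RNAs are short-lived, because their untranslated regions recruit decay factors, so a pulse of transcription gives a pulse of RNA. Egr1, Egr2 and Egr3 encode zinc-finger transcription factors that bind GC-rich sites. Nr4a1 (Nur77), Nr4a2 (Nurr1) and Nr4a3 (Nor1) encode orphan nuclear receptors whose activity is set largely by how much of them is made. Ier2 and Ier5 encode related nuclear proteins, of which Ier5 is known to modulate heat shock factor 1, and Ier3 (IEX-1) encodes a small regulator of cell survival and ERK signalling.

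Promoter sequence was matched by symbol to RefSeq (GRCm38.p6), as 250 bases before to 50 after each annotated start, 300 bases in all. Entries were found for 6 of the 9 genes, with 5 overlapping or neighbouring starts for Egr2 and 1 each for Nr4a1, Nr4a2, Nr4a3, Ier3 and Ier5. Egr1, Egr3 and Ier2 have no entry. The Nr4a promoters are shown because these 3 genes differed in the same direction between replicate letters, and Egr2 because it did too and belongs to another family. Both strands were searched, and capitals mark the CRE core site (TGACG, or CGTCA where the match is on the other strand) and the CArG box. The sequences run 5′ to 3′ along the gene's strand. They are Nr4a1 at chr15:101266596-101266895 (plus strand), Nr4a2 at chr2:57123954-57124253 (minus strand), Nr4a3 at chr4:48045055-48045354 (plus strand), and the third Egr2 entry at chr10:67537619-67537918 (plus strand):
Nr4a1: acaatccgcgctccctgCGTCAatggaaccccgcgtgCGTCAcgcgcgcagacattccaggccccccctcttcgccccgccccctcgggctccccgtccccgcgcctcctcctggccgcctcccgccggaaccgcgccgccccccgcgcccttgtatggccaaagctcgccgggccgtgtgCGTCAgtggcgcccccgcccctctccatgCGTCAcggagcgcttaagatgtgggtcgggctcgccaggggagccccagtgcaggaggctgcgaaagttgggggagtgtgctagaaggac
Nr4a2: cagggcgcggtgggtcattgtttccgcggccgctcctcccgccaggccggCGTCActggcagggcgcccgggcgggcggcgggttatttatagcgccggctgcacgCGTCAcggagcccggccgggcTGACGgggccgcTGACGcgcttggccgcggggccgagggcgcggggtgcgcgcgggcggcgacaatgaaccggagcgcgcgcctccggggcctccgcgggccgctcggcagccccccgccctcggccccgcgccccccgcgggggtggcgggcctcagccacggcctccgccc
Nr4a3: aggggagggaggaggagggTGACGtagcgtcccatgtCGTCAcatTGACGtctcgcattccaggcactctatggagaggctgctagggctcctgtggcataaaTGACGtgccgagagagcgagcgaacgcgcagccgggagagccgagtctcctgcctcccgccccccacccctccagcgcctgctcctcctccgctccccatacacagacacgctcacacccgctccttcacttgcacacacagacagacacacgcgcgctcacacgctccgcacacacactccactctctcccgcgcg
Egr2: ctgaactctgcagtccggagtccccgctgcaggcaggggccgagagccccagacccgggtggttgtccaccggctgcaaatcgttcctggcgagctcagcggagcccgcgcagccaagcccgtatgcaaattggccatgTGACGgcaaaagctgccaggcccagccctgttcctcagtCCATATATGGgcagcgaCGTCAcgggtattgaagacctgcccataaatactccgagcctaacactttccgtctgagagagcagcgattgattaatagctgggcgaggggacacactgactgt

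Each of the 3 Nr4a promoters holds 4 CRE core sites. At least 1 core site occurs in 20.8% of all 32851 promoters in the table and 4 or more in 0.231%, a minimum that was set after seeing these genes. In Nr4a3 the core sites begin 231, 213, 205 and 147 bases before the start. In Nr4a1 the core site nearest to the start lies at 40 to 36 bases before it, and in Nr4a2 at 111 to 107. The full palindrome TGACGTCA (1.79% of promoters) has no match in any of the 6 genes. The CArG box (1.63% of promoters) was found in 4 of the 5 Egr2 entries, at 72 to 63 bases before the start in the one shown, with CRE core sites at 111 to 107 and 55 to 51, and in none of the other 5 genes. The windows of Egr2 entries 3, 4 and 5 overlap and hold the same box, while entry 2 holds a different box. The EGR site GCGNGGGCG (5.55% of promoters) occurs once in Nr4a1, at 60 to 52 bases before the start, and once in Nr4a2, at 74 to 66. The ETS core CCGGAA (14.9%) occurs once in Nr4a1 and 3 times in a single Egr2 entry, and the NR4A site AAAGGTCA (1.51%) in none of the 6 genes. Ier3 and Ier5 hold none of the motifs searched. A match describes letters in this window and does not show a binding site. GC content is 72.3% in Nr4a1, 81.7% in Nr4a2 and 64.7% in Nr4a3, against a median of 52.7% over all promoters, and GC-rich motifs are found more readily in such windows.

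Libraries summed to between 27094222 and 33785682 counts over genes, of which the 9 genes took 0.0908 to 0.129%. Fibroblast markers were present as labelled, with 10 of 10 tested and a summed level of 18600 to 27000 RPM (reads as a share of the library total, on the scale of CPM without TMM). Markers of other cells were low: 0.0369 to 0.147 RPM summed over the 2 of 5 epithelial genes in the table, 0.296 to 1.07 over 4 of 4 endothelial genes and 0.0644 to 0.385 over 2 of 4 muscle or adipocyte genes. The 4 of 5 macrophage genes in the table summed to 7.62 to 15.6, nearly all of it from Cd68 and Csf1r, while Ptprc had 0 to 5 reads and Lyz2 0 to 3.5. Libraries of one letter stood together in all groups, which touches every result that follows. What a letter stands for is not stated in the labels, nor is whether replicates came from different cultures, and p-values therefore cover only the spread between the libraries at hand, which may be technical. In bulk RNA, fewer cells making a gene and less of its RNA per cell cannot be told apart.

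The 9 genes spanned a wide range of levels in these fibroblasts. Per kilobase of the deposited gene length, and over all 10 libraries, Nr4a1 was the most abundant with 251 ± 34.6 CPM per kb (counts after TMM scaling to a common library size; SD, n = 10), higher than 98.0% of tested genes. Ier3 (74.3 ± 11.8 CPM per kb) and Ier5 (53.8 ± 6.26) came next, with ranges that overlapped each other but not that of Nr4a1. Ier2 (22.2 ± 4.26), Nr4a2 (13.8 ± 3.90), Egr3 (9.24 ± 0.907), Egr1 (6.99 ± 1.00) and Nr4a3 (5.69 ± 3.17) followed, and each overlapped the next. Egr2 was lowest at 1.79 ± 0.351 CPM per kb, higher than 21.2% of tested genes, and its range reached that of Nr4a3. The Nr4a genes did not stand together, as Nr4a1 and Nr4a3, which encode closely related receptors, had the highest and the second lowest mean. The Ier genes followed one another in this order. The SD of Nr4a3 is large because its level split by letter, as described below.

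**Figure D1:**
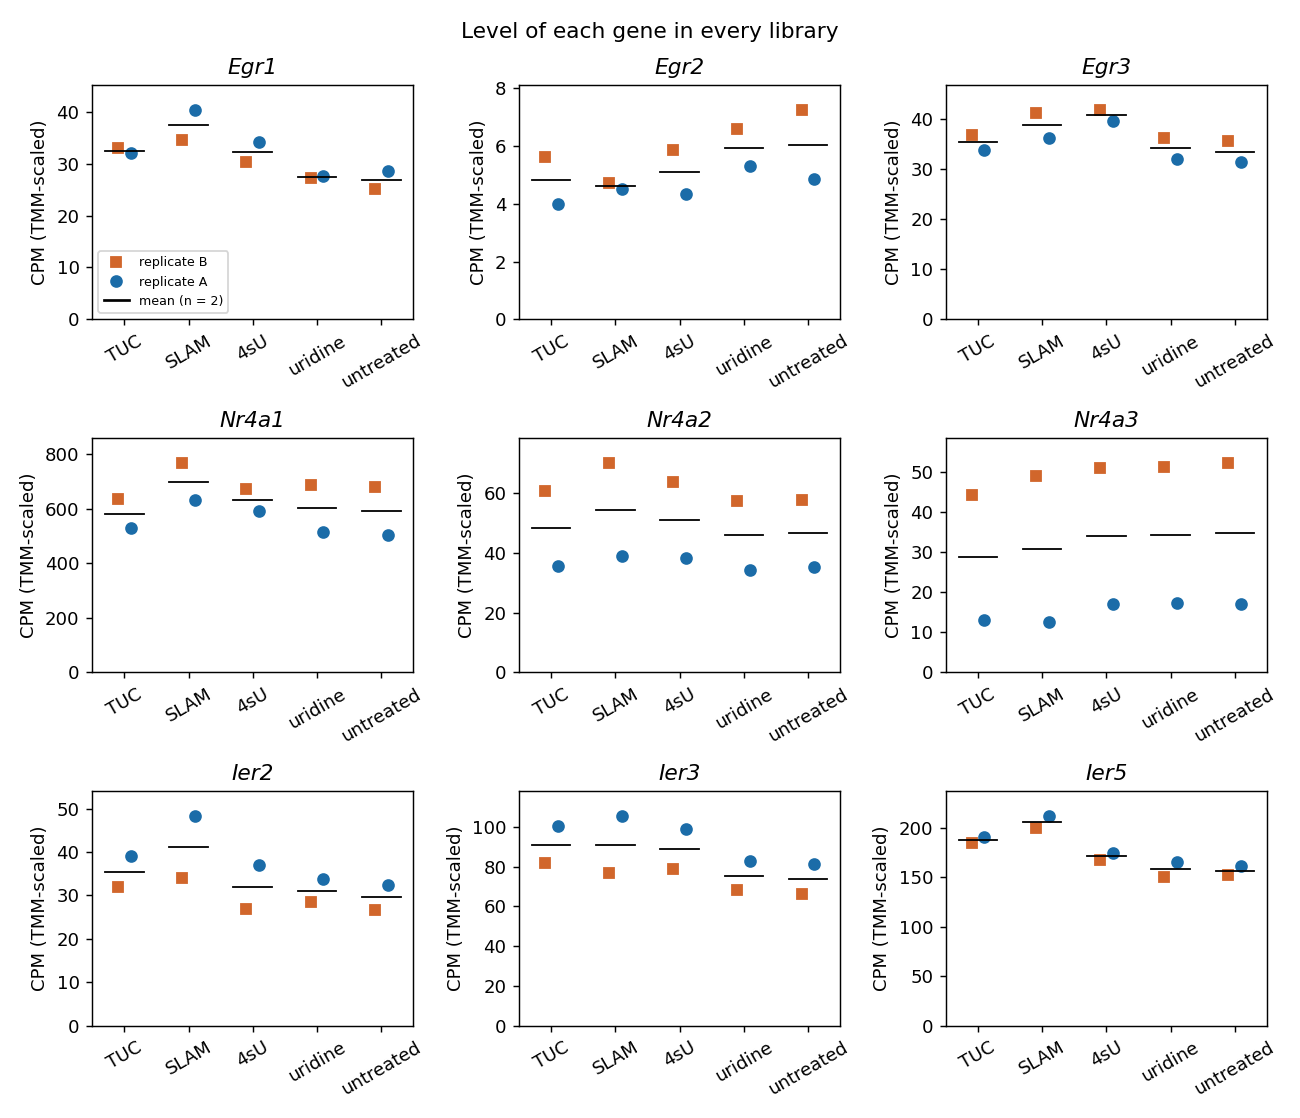
Level of each of the 9 genes (y axis, TMM-scaled CPM, from 0) in every library of the TUC, SLAM, 4sU, uridine and untreated groups (x axis), with replicate B as orange squares, replicate A as blue circles and the mean of each pair as a line. Nr4a3 lies between 44.3 and 52.2 CPM in the B libraries and between 12.6 and 17.4 CPM in the A libraries in all 5 groups.

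The zinc-finger genes were expressed at moderate to low level. Egr1 stood at 33.1 and 32.0 CPM in TUC B and A, 34.5 and 40.4 in SLAM B and A, 30.4 and 34.3 in 4sU B and A, 27.2 and 27.6 in uridine B and A, and 25.1 and 28.7 in untreated B and A. All 6 libraries of 4sU-labelled cells lay above the 4 others for Egr1. Egr3 stood at 36.8 and 33.8 CPM in TUC B and A, 41.2 and 36.2 in SLAM B and A, 41.7 and 39.6 in 4sU B and A, 36.2 and 31.9 in uridine B and A, and 35.5 and 31.3 in untreated B and A. Egr3 had its highest mean in the 4sU group, and its TUC libraries overlapped those of both groups without 4sU. Egr2 stood at 5.64 and 3.99 CPM in TUC B and A, 4.73 and 4.51 in SLAM B and A, 5.88 and 4.33 in 4sU B and A, 6.59 and 5.30 in uridine B and A, and 7.25 and 4.84 in untreated B and A. These values rest on only 104 to 251 reads per library, and the groups overlapped.

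The nuclear receptor genes separated the letters more than the groups. Nr4a1 stood at 637 and 529 CPM in TUC B and A, 768 and 633 in SLAM B and A, 672 and 592 in 4sU B and A, 687 and 517 in uridine B and A, and 679.9 and 504 in untreated B and A. Within each letter the SLAM library was the highest, but the groups overlapped because the letters differ. Nr4a2 stood at 60.9 and 35.8 CPM in TUC B and A, 70.1 and 39.0 in SLAM B and A, 63.7 and 38.4 in 4sU B and A, 57.5 and 34.4 in uridine B and A, and 57.9 and 35.3 in untreated B and A. Every B library of Nr4a2 lay above every A library. Nr4a3 stood at 44.3 and 13.2 CPM in TUC B and A, 49.1 and 12.6 in SLAM B and A, 51.0 and 17.1 in 4sU B and A, 51.3 and 17.4 in uridine B and A, and 52.2 and 17.1 in untreated B and A. Both letters of Nr4a3 were lower in the converted groups than in the same letter of the unconverted ones.

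The Ier genes ran the other way between letters. Ier2 stood at 31.9 and 39.1 CPM in TUC B and A, 33.9 and 48.2 in SLAM B and A, 26.9 and 37.0 in 4sU B and A, 28.4 and 33.8 in uridine B and A, and 26.7 and 32.3 in untreated B and A. SLAM A was the highest library for Ier2, and groups overlapped because the letters differ. Ier3 stood at 82.0 and 100.3 CPM in TUC B and A, 76.6 and 105 in SLAM B and A, 78.7 and 98.9 in 4sU B and A, 68.1 and 82.6 in uridine B and A, and 66.2 and 81.2 in untreated B and A. Within each letter, Ier3 was higher in all 3 groups of labelled cells than in both groups without 4sU. Ier5 stood at 185 and 191 CPM in TUC B and A, 200.1 and 212 in SLAM B and A, 168 and 175 in 4sU B and A, 150.3 and 166 in uridine B and A, and 152 and 162 in untreated B and A. Ier5 had the smallest gap between letters, and its 3 labelled groups did not overlap each other.

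Uridine left no detectable change in these genes. Between uridine and untreated libraries, edgeR (quasi-likelihood, Benjamini-Hochberg adjustment over all genes, adjusted p below 0.05) called 0 of the 9 genes, beside 0% of all genes. None had an unadjusted p below 0.05, and DESeq2 called 0. Log2 fold changes in that fit lay between -0.02 (Egr2) and 0.08 ± 0.222 (Ier2; SE, n = 2 against 2). With the replicate letter as a block, a fit that compares libraries within a letter, 0 genes passed again, beside 0.00818% of all genes, and the SE of Ier2 was 0.0754. Nr4a1, the most abundant, had a fold of 1.017 in that fit.

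Labelling with 4sU went with slightly higher Egr1, Egr3 and Ier3 RNA once the letter was taken into account. Without the block, 0 of the 9 genes passed between 4sU and untreated libraries, beside 0.164% of all genes, and 2 (Egr1 and Egr3) had an unadjusted p below 0.05, against 0 called by DESeq2. With the block, 3 genes rose and 0 fell (edgeR, adjusted p below 0.05), beside 19.9% of all genes called and 6.97% called higher. Egr1 averaged 32.4 ± 2.75 CPM in 4sU cells and 26.9 ± 2.57 in untreated cells (SD, n = 2 per group), a log2 fold change of 0.27 ± 0.0758 with the block (adjusted p 0.0211). Egr3 averaged 40.6 ± 1.52 CPM in 4sU cells and 33.4 ± 3.0 in untreated cells, a log2 fold change of 0.28 ± 0.0628 (adjusted p 0.00456). Ier3 averaged 88.8 ± 14.3 CPM in 4sU cells and 73.7 ± 10.6 in untreated cells, a log2 fold change of 0.27 ± 0.0588 (adjusted p 0.00442). These are rises of about 1.2-fold in genes that respond to growth and stress signals. The groups did not overlap for Egr1 and Egr3, and Ier3 was higher within each letter. Neither trait was particular to the called genes. The groups did not overlap for Ier5 either, and Nr4a2, Ier2 and Ier5 were higher within each letter too, without being called. The share of all genes that separate in this way was not counted for this or any other comparison of groups.

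The other 6 genes did not pass in that comparison. Ier5 (0.13 ± 0.0502, adjusted p 0.0826) and Nr4a2 (0.13 ± 0.0606, adjusted p 0.147) had positive log2 fold changes in edgeR's fit with the block. Egr2 had -0.24 ± 0.128 (adjusted p 0.197), with the opposite sign to its paralogs Egr1 and Egr3, and Nr4a3 had -0.02 ± 0.0839. The median over the 9 genes was 0.13 with the block, beside 0.01 over all genes. The calls were not robust to the loss of 1 library in the fit with the block. Such a loss leaves 1 library in a group, and fewer of all genes passed then too. Log2 fold changes stayed at 0.217 to 0.316 for Egr1, 0.235 to 0.331 for Egr3 and 0.244 to 0.29 for Ier3. Egr1 was lost without any 1 of the 4 libraries (adjusted p 0.0501 to 0.196), and Egr3 was lost without untreated A or 4sU A (0.0185 to 0.11 over the 4). Ier3 passed only without untreated B (0.0139 to 0.0651 over the 4).

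Against uridine, the same 3 genes passed, in a comparison that uses the same 4sU libraries. Without the block 0 of the 9 genes were called by edgeR, beside 0.254% of all genes, with 0 at an unadjusted p below 0.05 and 0 called by DESeq2. With the block 3 were higher and 0 lower, beside 19.7% of all genes called and 6.48% called higher. Log2 fold changes were 0.23 ± 0.0763 for Egr1 (adjusted p 0.0409), 0.26 ± 0.0632 for Egr3 (adjusted p 0.00965) and 0.23 ± 0.059 for Ier3 (adjusted p 0.011) by edgeR. Egr1 averaged 27.4 ± 0.232 CPM in uridine cells, Egr3 34.1 ± 3.0 and Ier3 75.4 ± 10.2. Nr4a2 (0.15 ± 0.0611, adjusted p 0.0885) and Ier5 (0.12 ± 0.0504, adjusted p 0.11) came next and did not pass. Leaving out any 1 of the 4 libraries ended the calls of Egr1 (adjusted p 0.0914 to 0.331) and Ier3 (0.0584 to 0.162), and Egr3 passed only without 4sU B (0.0454 to 0.165 over the 4). Such a loss leaves 1 library in a group, and fewer of all genes passed then too. With the block and all libraries, Egr1 had an adjusted p of 0.0649 by DESeq2 and 0.0765 with library totals.

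**Figure D2:**
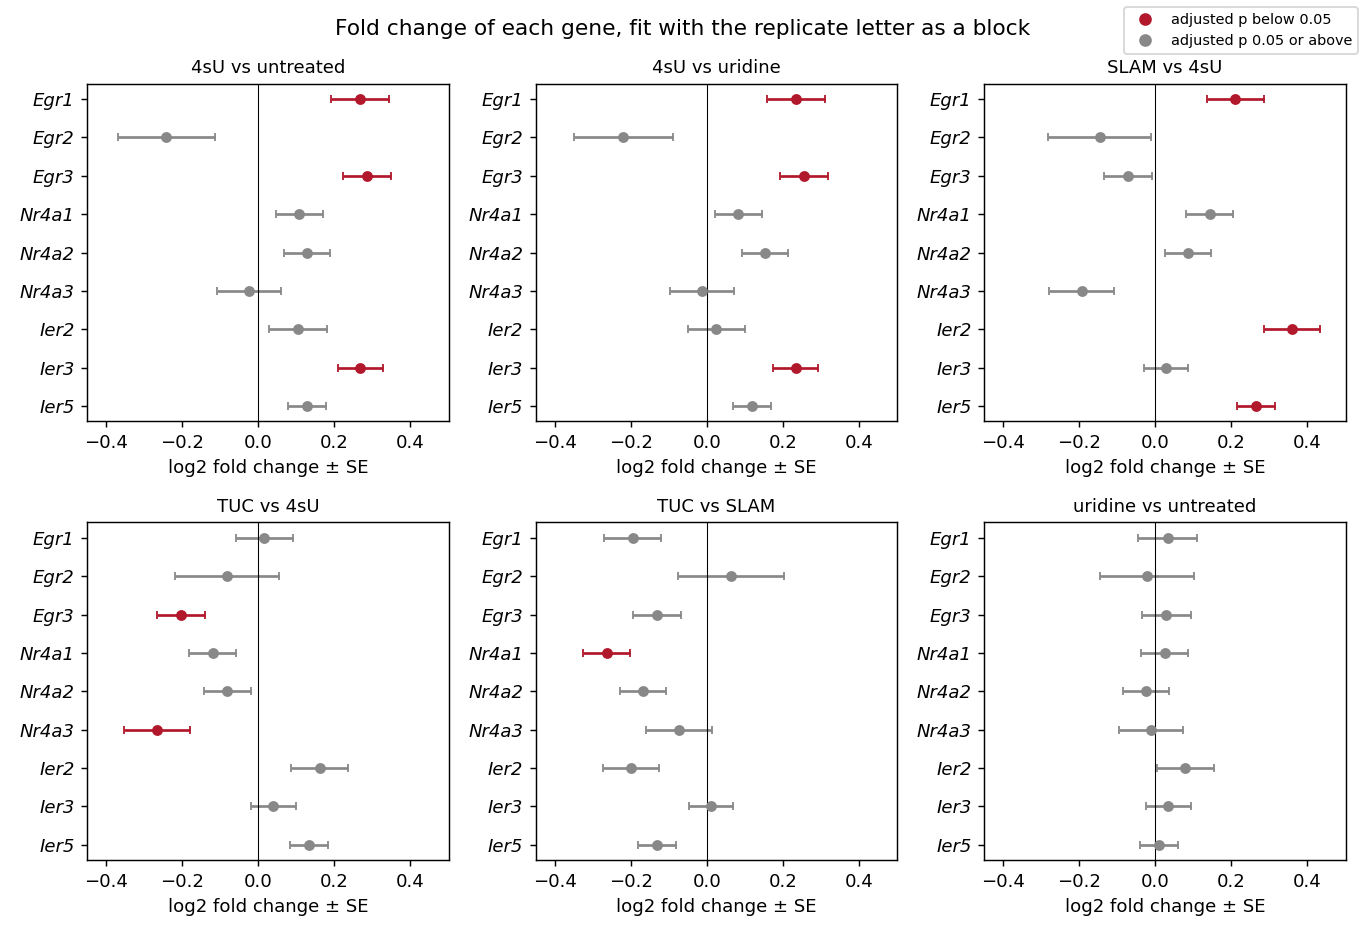
Log2 fold change of each gene (x axis, bars are 1 SE) in 6 comparisons, from edgeR's fit with the replicate letter as a block, with red points for an adjusted p below 0.05 and grey points otherwise. Egr1, Egr3 and Ier3 are red in both 4sU comparisons, Egr1, Ier2 and Ier5 in SLAM vs 4sU, Egr3 and Nr4a3 in TUC vs 4sU, Nr4a1 in TUC vs SLAM, and none in uridine vs untreated.

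SLAM conversion went with higher Ier2, Ier5 and Egr1 counts than in unconverted RNA of cells labelled in the same way. Without the block 0 of the 9 genes passed, beside 0.344% of all genes, 1 (Ier5) had an unadjusted p below 0.05 and DESeq2 called 0. With the block 3 genes were higher and 0 lower in edgeR's test, beside 41.6% of all genes called and 20.0% called higher, so calls of this kind were common among all genes. Ier2 averaged 41.1 ± 10.1 CPM in SLAM libraries and 31.9 ± 7.11 in 4sU libraries, a log2 fold change of 0.36 ± 0.0739 (adjusted p 0.00109). Ier5 averaged 206 ± 8.34 CPM in SLAM libraries and 172 ± 5.05 in 4sU libraries, a log2 fold change of 0.26 ± 0.0501 (adjusted p 0.000594). Egr1 averaged 37.5 ± 4.13 CPM in SLAM libraries and 32.4 ± 2.75 in 4sU libraries, a log2 fold change of 0.21 ± 0.0742 (adjusted p 0.0317). Ier2 and Ier5, the related nuclear proteins, had the largest values. Both passed whichever library was left out, while Egr1 passed only without SLAM B (adjusted p 0.00541 to 0.229 over the 4) and neither with DESeq2 (0.0804) nor with library totals (0.0925) in the fit with the block. Without SLAM B, 5 genes passed, since Nr4a1 (0.16) and Nr4a3 (-0.41) then did so too. The macrophage list was higher in SLAM than in 4sU libraries as well (10.9 and 15.6 RPM in SLAM B and A, against 8.25 and 12.5 in 4sU B and A), as were the fibroblast markers (27000 and 20700 RPM, against 24300 and 20100), and their part in these values was not tested.

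After TUC conversion, Egr3 and Nr4a3 counts were called lower than in unconverted RNA once the letter was taken into account. Egr2, Nr4a1 and Nr4a2 were also lower within each letter, without being called. The share of all genes lower within each letter was not counted. Without the block 0 of the 9 genes passed against unconverted 4sU libraries, beside 0% of all genes, with 0 at an unadjusted p below 0.05 and 0 called by DESeq2. With the block 2 genes were lower and 0 higher, beside 25.8% of all genes called and 14.2% called lower, so 2 of 9 is near the background. Egr3 averaged 35.3 ± 2.13 CPM in TUC libraries and 40.6 ± 1.52 in 4sU libraries, a log2 fold change of -0.20 ± 0.0634 (edgeR, adjusted p 0.0283). Nr4a3 averaged 28.7 ± 22.0 CPM in TUC libraries and 34.0 ± 24 in 4sU libraries, a log2 fold change of -0.27 ± 0.0867 (adjusted p 0.0332). The large SDs of Nr4a3 are the gap between letters, and it was lower within each letter. Ier2 (0.16 ± 0.0752, adjusted p 0.128) and Ier5 (0.13 ± 0.0502, adjusted p 0.0611), 2 of the genes called in SLAM libraries, had positive values that did not pass. Leaving out any 1 of the 4 libraries ended both calls, with adjusted p of 0.0819 to 0.286 for Egr3 and 0.0845 to 0.238 for Nr4a3. DESeq2 with the block called only Nr4a3 (adjusted p 0.0446), and the block with library totals only Egr3. The macrophage list was at 9.69 and 13.4 RPM in TUC B and A, above 4sU and below SLAM in both letters, and the fibroblast markers at 22000 and 18600, below both, which was not tested as a part of these values.

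Between the chemistries, Nr4a1 passed. Without the block 0 of the 9 genes passed between TUC and SLAM libraries, beside 0% of all genes, with 0 at an unadjusted p below 0.05 and 0 called by DESeq2. With the block Nr4a1 was lower in TUC libraries and no gene was higher, beside 20.1% of all genes called and 10.1% called lower, so 1 of 9 is near the background. Nr4a1 averaged 583 ± 75.9 CPM in TUC libraries and 700.4 ± 95.6 in SLAM libraries, a log2 fold change of -0.26 ± 0.062 (edgeR, adjusted p 0.00697). Set against unconverted RNA, its values were -0.12 ± 0.062 for TUC and 0.14 ± 0.0619 for SLAM, and neither passed. Egr1, Egr3, Nr4a2, Ier2 and Ier5 had log2 fold changes of -0.20 to -0.13 between the chemistries and were lower in both letters. None of them passed, with adjusted p of 0.164 for Egr3 and 0.0632 to 0.0788 for the others in that edgeR fit. How many of all genes were lower in both letters was not counted. The Nr4a1 call was lost without TUC B (adjusted p 0.103), and the fit without the block gave it 0.784. Without SLAM A, 3 genes passed, as Nr4a2 (-0.23) and Nr4a3 (-0.20) joined Nr4a1, and without SLAM B 3 passed, as Egr1 (-0.26) and Ier2 (-0.29) did.

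Nearly all RNA of these genes was counted as newly made in converted libraries. The deposited ratio of new to total RNA (NTR) is a posterior mode with points at 5 and 95%, which bound a 90% interval that covers the estimate within 1 library only. The mean NTR was 92.8 to 99.5% in TUC libraries over the 9 genes and 90.4 to 100% in SLAM libraries. The medians over the 10232 genes averaging 100 reads or more were 58.9% in TUC and 57.0% in SLAM libraries. Each of the 9 genes stood above at least 80.9% of those genes. At steady state, a message that decays fast has a high ratio by construction, and so does one that was induced during labelling.

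Nr4a1 was at or near the top of this scale. It had NTR modes of 99.0% and 100% in TUC B and A, and 100% in both SLAM libraries. That SLAM mean of 100% is the limit of the scale and was reached by 62 of the 10232 genes. In TUC libraries 69 genes had a higher mean than Nr4a1. With 13811 to 26140 reads per library, Nr4a1 had the narrowest intervals of the 9 genes, such as 98.7 to 99.3% in TUC B. Nr4a3 had 97.7% and 98.8% in TUC B and A, and 99.0% and 100% in SLAM B and A. Nr4a2 had 96.4% and 94.8% in TUC B and A, and 97.2% and 94.8% in SLAM B and A. Nr4a2 was thus the lowest of the nuclear receptors in both chemistries. The shares of new RNA of the 3 receptors lie near the limit of 100%, so their spread cannot be compared with that of levels.

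Egr3 had NTR modes of 98.5% and 97.5% in TUC B and A, and 98.2% and 97.4% in SLAM B and A. Egr1 had 95.8% and 96.1% in TUC B and A, and 97.5% and 100% in SLAM B and A. The mode of 100% in SLAM A lies above its own interval of 97.9 to 99.9%, since a mode can sit at the limit of the scale. Egr2, the least abundant, had 96.2% and 89.3% in TUC B and A, and 88.3% and 93.2% in SLAM B and A. Its interval of 81.1 to 94.4% in TUC A was wide, at 104 reads. The order of the chemistries was opposite in the letters for Egr2.

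Among the Ier genes, Ier2 kept the largest share of old RNA. Ier2 had NTR modes of 92.2% and 95.2% in TUC B and A, and 88.4% and 92.3% in SLAM B and A. Ier5 had 96.2% and 98.0% in TUC B and A, and 94.7% and 96.2% in SLAM B and A. Ier3 had 96.8% and 100% in TUC B and A, and 98.3% and 99.99% in SLAM B and A. For Ier2 and Ier5 the TUC value was the higher in each letter, and for all 3 Ier genes replicate A was higher than B in both chemistries. Over all genes the medians ran the other way between letters, with 63.2% and 54.7% in TUC B and A, and 61.4% and 52.6% in SLAM B and A.

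If labelling is taken to be at steady state and without delay, an NTR over 2 h corresponds to a half-life. For Ier2 this gave 32.6 and 27.4 min in TUC B and A, and 38.6 and 32.4 min in SLAM B and A. Egr3 gave shorter values, 19.8 and 22.4 min in TUC B and A, and 20.7 and 22.9 min in SLAM B and A. Egr1 gave 26.3 and 25.6 min in TUC B and A and 22.6 min in SLAM B. A mode of 100% gives none, as in 3 of the 4 converted libraries for Nr4a1, which gave 17.9 min in TUC B. These numbers move steeply with the NTR near its limit and with any delay in labelling, and describe rather than measure decay.

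**Figure D3:**
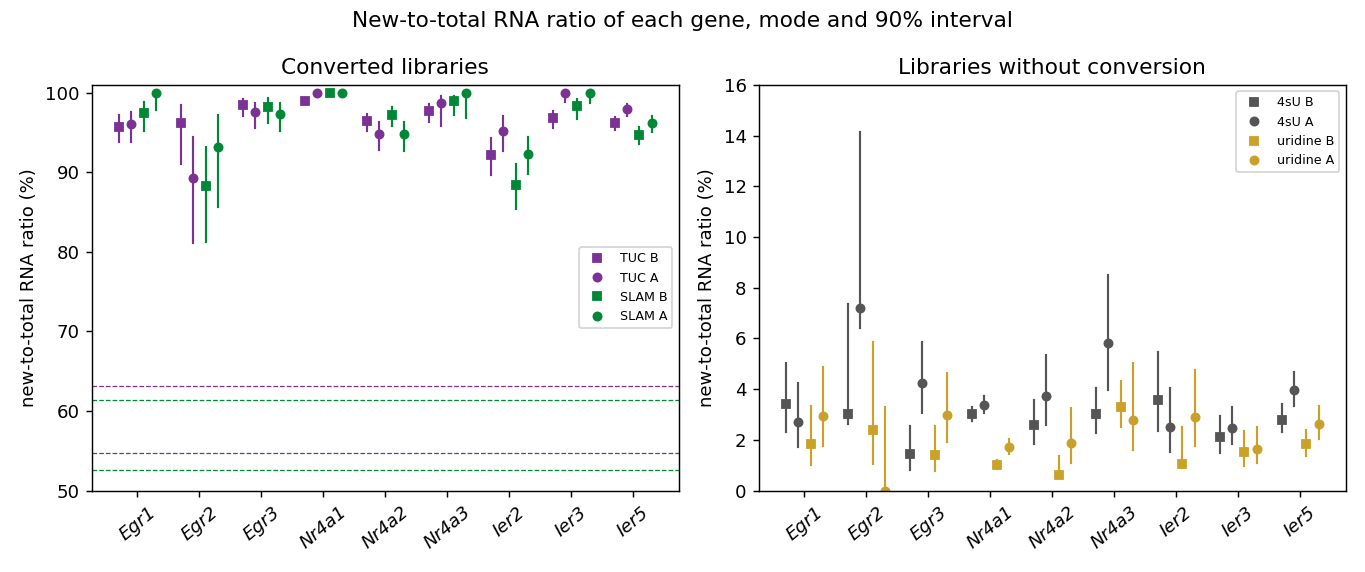
NTR of each gene (y axis, percent) in converted libraries (left panel, y axis from 50%, with dashed lines at the all-gene median of each library) and in libraries without conversion (right panel, y axis from 0%), where points are posterior modes, lines the 90% interval, squares replicate B and circles replicate A. The 9 genes lie between 88.3 and 100% with conversion and between 0 and 7.2% without.

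The NTR values of these genes did not pass a test of difference between the chemistries. With limma on the log2 odds of new RNA, 0 of the 9 genes passed an adjusted p of 0.05 between TUC and SLAM libraries, and 0% of 10202 genes passed with or without the block. At an unadjusted p below 0.05 there were 2 of the 9 without the block (Egr1 and Nr4a3) and 3 with it (Nr4a3, Ier2 and Ier5), among 239 and 889 genes in all. Egr1 had a mean NTR of 95.9% in TUC libraries and 98.7% in SLAM libraries, and Nr4a3 98.2% in TUC and 99.5% in SLAM libraries. Ier2 had 93.7% in TUC and 90.4% in SLAM libraries, a difference of 3.34 points, and Ier5 97.1% and 95.5%, a difference of 1.6 points. Without SLAM B, Egr1 passed (-3.07 on the log2 odds scale, limma adjusted p 7.39e-05), on the SLAM A mode of 100% alone.

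Without conversion the ratio stayed close to its floor. In 4sU libraries it was 1.46 to 7.2% over the 9 genes, with medians of 3% in B and 3.74% in A, beside 1.77% in B and 1.94% in A over all genes. In uridine libraries it was 0 to 3.28%, with medians of 1.51% in B and 2.61% in A, beside 1% in B and 1.42% in A over all genes. The highest value, 7.2% for Egr2 in 4sU A, has an interval of 6.43 to 14.1% and 125 reads. Nr4a1, with the most reads, had 3% and 3.39% in 4sU B and A, and 1.02% and 1.71% in uridine B and A. Its 4sU intervals lay above its uridine intervals in both letters.

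For Nr4a3, Nr4a2, Egr2, Ier3 and Nr4a1, the difference between replicate letters was larger in size than their fold changes in the 6 comparisons of groups run in the fit with the block. This comparison was added after seeing the data and uses edgeR's term for the letter in that fit. The term treats libraries of one letter as replicates of that letter, though what they share is not stated. Its p-values and calls, also with a library left out, thus cover only the spread between these libraries, which may be technical. 9 of the 9 genes passed between B and A, beside 60.3% of all genes, with 5 higher, beside 31.0%, and 4 lower, beside 29.3%. Nr4a3 was 3.21-fold higher in B than in A (log2 1.68 ± 0.0551, adjusted p 4.68e-12), and within groups the ratio was 3.36 in TUC, 3.88 in SLAM, 2.99 in 4sU, 2.95 in uridine and 3.05 in untreated libraries. Nr4a2 was 1.69-fold higher in B (0.76 ± 0.0387, adjusted p 4.04e-10) and Nr4a1 1.24-fold higher (0.31 ± 0.0392, adjusted p 4.54e-06). All 3 receptors were higher in B in all 5 groups. Egr2 (0.39 ± 0.0837) and Egr3 (0.15 ± 0.0401) were higher in B in every group too.

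Ier2 and Ier3 were lower in B in all 5 groups, with log2 fold changes of -0.36 ± 0.0473 (adjusted p 7.65e-06) and -0.33 ± 0.0372 (adjusted p 1.56e-06) in edgeR's fit. Ier5 (-0.08 ± 0.0317, adjusted p 0.03) was also lower in each group, by a small margin. Egr1 (-0.12 ± 0.0479, adjusted p 0.0464) was lower in 4 of the 5 groups and higher in TUC. The calls of Egr1 and Ier5 were each lost when any of 6 of the 10 libraries was left out, with adjusted p up to 0.164 for Egr1 and 0.136 for Ier5. For Egr1 these were both libraries of the untreated, 4sU and SLAM groups, and for Ier5 both of the untreated, uridine and 4sU groups. With the block, Egr1 had an adjusted p of 0.109 by DESeq2, and library totals gave 0.219 for Egr1 and 0.273 for Ier5. The other 7 genes passed whichever library was left out. Markers moved with the letter as well: the summed fibroblast markers were at 22000 to 27000 RPM in B and 18600 to 20700 in A, and the macrophage list at 7.62 to 10.9 in B and 10.7 to 15.6 in A. Their part in the difference was not tested.

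**Figure D4:**
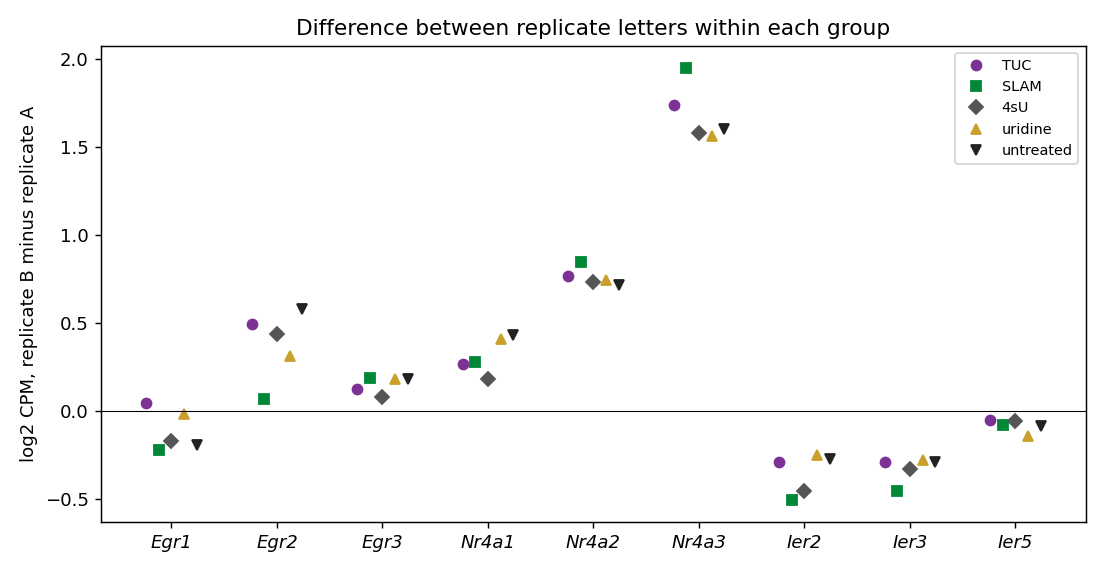
Difference of log2 CPM between replicate B and replicate A (y axis) for each gene (x axis) in the TUC, SLAM, 4sU, uridine and untreated groups (symbols). The 5 groups of Nr4a3 lie between 1.56 and 1.95, those of Nr4a2 between 0.71 and 0.84, and those of Ier2 and Ier3 all below 0.

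The genes varied across libraries in several patterns. Over the 10 libraries, log2 CPM of Nr4a2 and Nr4a3 had a Pearson r of 0.945 and of Nr4a1 and Nr4a2 0.9, while Nr4a3 and Ier3 had -0.84. Egr1 and Ier5, which have the smallest differences between letters, had 0.919, with Egr1 and Egr2 at -0.705. These are descriptions over libraries that share a letter and a group, with no test. Among tested genes with a mean CPM of 10 or more, the closest patterns were those of Sned1 (0.99) for Nr4a3, Lox (0.992) for Nr4a2 and Vegfa (0.973) for Nr4a1. They were Irf2bp1 (0.977) for Egr1, Fam8a1 (0.973) for Egr2 and Lif (0.973) for Egr3, and Ino80b (0.991) for Ier2, Mogs (0.989) for Ier3 and Ctbp1 (0.987) for Ier5. Sned1 was itself higher in B by a mean log2 difference of 1.43.

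Other response genes of the same signals were counted from a list of 39, of which 38 were tested. Between 4sU and untreated libraries edgeR called 2 higher without the block, beside 0.164% of all genes called. DESeq2 called 4 higher, beside 33 higher and 206 lower among 16843 genes. With the block edgeR called 11 higher and 2 lower, beside 19.9% of all genes called and 6.97% called higher. The median log2 fold change with the block was 0.08, beside 0.01 over all genes. Btg2, an antiproliferative gene that p53 also induces, was higher by 1.21 ± 0.095 (adjusted p 0.00577 without the block), and Ptgs2, the inducible cyclooxygenase, by 0.86 ± 0.112 (0.0442). Rgs2 (0.49), a regulator of G protein signalling, and Errfi1 (0.44), a feedback inhibitor of the EGF receptor, passed with the block. Sgk1 (-0.20) and Cyr61 (-0.21) were lower. Against uridine edgeR called 2 higher without the block, beside 0.254% of all genes called, with Btg2 at 1.13 ± 0.095. With the block it called 11 higher and 2 lower, beside 19.7% of all genes called and 6.48% called higher.

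Between SLAM and 4sU libraries edgeR called 0 of the 38 without the block, with 13 at an unadjusted p below 0.05. How many of all genes reached that unadjusted level was not counted for any comparison of counts. DESeq2 called 4 higher and 3 lower, beside 345 higher and 311 lower among 16843 genes. With the block edgeR called 15 higher and 7 lower, beside 41.6% of all genes called and 20.0% called higher. Ier5l, the paralog of Ier5, was higher by 0.68 ± 0.075 (edgeR, adjusted p 8.25e-06), with Fosl1 (0.39), Myc (0.48) and Jund (0.63), which encode transcription factors. Klf6 (-0.47), Ptgs2 (-0.39), Sgk1 (-0.35) and Fosl2 (-0.35) were lower. Ier5l stood at 66.1 and 64.7 CPM in TUC B and A, 88.9 and 109.8 in SLAM B and A, 60.2 and 63.9 in 4sU B and A, 64.2 and 62.6 in uridine B and A, and 62.5 and 61.3 in untreated B and A. Both SLAM libraries lay above the 8 others. Egr4, the remaining Egr paralog, had 1 read in SLAM B and 0 in the other 9 libraries.

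Between TUC and 4sU libraries edgeR called 0 of the 38 without the block, with 1 at an unadjusted p below 0.05 and 0 called by DESeq2. With the block 0 were higher and 4 lower, a share of the 38 below the 14.2% of all genes called lower, namely Dusp4 (-0.48), Fosl2 (-0.28), Ptgs2 (-0.25) and Klf6 (-0.23). Between TUC and SLAM libraries edgeR called 0 without the block, with 12 at an unadjusted p below 0.05. DESeq2 called 3 lower, beside 71 higher and 97 lower among 16843 genes. With the block 4 were higher and 11 lower, beside 20.1% of all genes called and 10.1% called lower, among them Ier5l (-0.60 ± 0.0751, edgeR adjusted p 9.21e-05). Between uridine and untreated libraries 0 were called with the block (1 at an unadjusted p below 0.05) and 0 without it (0 at that level), and DESeq2 called 0. Between B and A, 8 were higher and 13 lower with the block, beside 60.3% of all genes called, among them Dusp5 (-0.53), a phosphatase of ERK, and Fosl2 (0.44).

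Of 19 regulators and partners, such as serum response factor, CREB, ERK kinases, the EGR corepressors Nab1 and Nab2 and heat shock factor 1, 18 were tested and 0 passed without the block in any of the 6 comparisons, with 0 to 4 at an unadjusted p below 0.05. DESeq2 called 2 higher and 1 lower between SLAM and 4sU libraries, beside 345 higher and 311 lower among 16843 genes. It called 0 in the other 5 comparisons. With the block, 1 rose and 3 fell between 4sU and untreated libraries by edgeR, a share near the 19.9% of all genes called. The one that rose was Nab2 (0.17 ± 0.0537, adjusted p 0.0355), itself an EGR target that represses EGR proteins, and Creb1 (-0.34), Rps6ka3 (-0.34) and Mef2a (-0.20) fell. Against uridine 1 rose, the ERK kinase gene Mapk3 (0.23), and the same 3 fell, beside 19.7% of all genes called. Between SLAM and 4sU libraries 4 were higher, Hsf1 (0.43), Mapk3 (0.33), Rxrb (0.22) and Srf (0.21), and 5 lower, with Creb1 at -0.59, beside 41.6% of all genes called. Between TUC and 4sU libraries 0 were higher and 5 lower, with Rps6ka3 at -0.37, beside 25.8% of all genes called. Between TUC and SLAM libraries 3 were higher and 6 lower, with Creb1 at 0.33 and Hsf1 at -0.30, beside 20.1% of all genes called. Between uridine and untreated libraries 0 passed, and between B and A 7 were higher and 3 lower, beside 60.3% of all genes called.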

How the data were processed

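Reads per gene in 10 libraries were deposited by the authors in the form of expected counts and left unscaled, per the file headers, and 24.8 to 30.3% of genes per library hold a value that differs by any amount from a whole number. The fraction of new RNA (NTR) was deposited for 8 libraries as a posterior mode with 5 and 95% points, per the file headers, which do not name the quantity. It is read as the new-to-total ratio because it lies near 0 without conversion. cutadapt, Bowtie2 2.3.0 and STAR 2.7.10b were used, per the submitters' processing notes. Build, annotation, counter and strand setting were not given in the sources used here. RefSeq places Gm32255, a lncRNA, over Egr2 and LOC105244150 over Nr4a2, so reads of these pairs may not be told apart. 24 per-library columns were not used.

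Counts were rounded, filtered with filterByExpr, scaled by TMM factors and tested in R 4.3.3 with the quasi-likelihood F test of edgeR 4.0.16, all libraries in a single fit, with Benjamini-Hochberg adjustment over 12218 genes and a threshold of 0.05. DESeq2 1.42.0 was an alternative. NTR was kept between 0.005 and 0.995 and tested as log2 odds with limma 3.58.1. Log2 CPM used a prior count of 2. The edgeR fit without the block and the NTR test without it were tried on simulated data that held no letter effect. The fit with the block was not tried in this way. The letters were taken to pair libraries because B minus A correlated across genes between groups (r 0.584 to 0.69 over 10 pairs of groups). Adding the letter as a block lowered the common dispersion to 0.00195, against 0.0187 without it. The main design, fixed as such, has no block. Replicates differed beyond sampling noise (chi-square per gene 38.4 to 78.1 within groups, and 4.44 between uridine A and untreated A). The genes, lists and tests were chosen with earlier results of these data known. Named genes are the 9, the closest patterns among genes of 10 CPM or more, up to 4 called list members each way, the paralogs Egr4 and Ier5l, and markers at or near 0; the text names some of those the rule allows.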

Additional observations from a re-analysis of the deposited data

Results flagged for a closer look

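The Nr4a1 difference between the chemistries is given here because the effects of TUC and of SLAM against the same unconverted 4sU libraries differ by a test of the difference itself, in edgeR's fit with the letter as a block (log2 fold change -0.26 ± 0.062, adjusted p 0.00697). Nr4a1 was lower in TUC than in SLAM libraries in both letters. Its adjusted p was 0.784 without the block and 0.103 with the block and without TUC B, and 20.1% of all genes passed in the same comparison with the block, so 1 of the 9 genes is near the background. No group has 4 or more libraries, so single libraries were not assessed as outliers within groups.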

How the results depend on the processing

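With the replicate block in place of the fit without it, the number of the 9 genes called became 3 for 4sU vs untreated, 3 for 4sU vs uridine, 3 for SLAM vs 4sU, 2 for TUC vs 4sU and 1 for TUC vs SLAM, against 0 without it. It stayed 0 for uridine vs untreated and for NTR, and no other call changed with the block. Without it, DESeq2, library totals, other count filters, the 4 compared libraries alone and leaving out any 1 library left all 6 counts at 0. Within the fit with the block, leaving out 1 library gave 0 to 2 genes for 4sU vs untreated, 0 to 1 for 4sU vs uridine, 2 to 5 for SLAM vs 4sU, 0 for TUC vs 4sU and 0 to 3 for TUC vs SLAM. For NTR of TUC vs SLAM the range was 0 to 1. DESeq2 with the block and library totals with the block, both chosen after seeing the data, gave 1 each for TUC vs 4sU, and 2 each for 4sU vs uridine and for SLAM vs 4sU, where Egr1 no longer passed. A mean of 100 counts or more with the block gave 3 for TUC vs 4sU, with Ier5 (adjusted p 0.0481) added. Of 1106 values of single genes under alternatives, 103 turned sign, 96 of them with a library left out, and 0 of these had passed. Among all genes, DESeq2 without the block called 0 of 16843 for uridine vs untreated, 239 for 4sU vs untreated and 271 for 4sU vs uridine. It called 656 for SLAM vs 4sU, 16 for TUC vs 4sU and 168 for TUC vs SLAM. A library left out leaves 1 in its group. With the block, fewer of all genes then passed too for 4sU vs untreated and 4sU vs uridine. A lost call there is thus not particular to the 9 genes. Groups of 2 libraries, and for Egr2 104 to 251 reads per library, limit the precision. The cause of the changed calls was not tested.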
